A study of Mus musculus with 6 samples.

Results

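MHC class II antigen presentation was followed through 10 genes in mouse lung: the classical chains H2-Aa, H2-Ab1 and H2-Eb1, the chaperone chain Cd74, the protease Ctss, the peptide-loading subunits H2-DMa and H2-DMb1, their inhibitors H2-Oa and H2-Ob, and the transactivator Ciita. They were taken by symbol from a table of 57180 genes, where each symbol stood once, and all 10 were among the 16989 genes that passed the filter on low counts. 3 libraries came from FTO-overexpressing lungs (genotype FTO_OE) and 3 from wild-type lungs (genotype WT), and every animal had been exposed to cigarette smoke. FTO removes the methyl group of N6-methyladenosine from RNA. The labels give no strain, age, sex, smoke dose or way of overexpression, and nothing in them ties a library to its own mouse or excludes pooled animals, so p-values measure only the spread between these samples, which may be technical. No unexposed lung was analysed here, so no value measures an effect of smoke.

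Class II molecules are pairs of an alpha and a beta chain that show peptides from engulfed material to CD4 T cells. The chains assemble with the invariant chain, the product of Cd74, which blocks the groove until cathepsin S and other proteases cut it down to a short remnant. H2-DM then exchanges this remnant for peptide, and H2-O holds H2-DM back. The genes are switched on by CIITA, which docks on factors bound to the X and Y boxes of their promoters and is itself induced by interferon gamma. In lung, dendritic cells, B cells, some macrophages and alveolar type 2 cells carry class II.

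Promoter sequences are shown because the X and Y boxes are where CIITA is known to act on these genes. The RefSeq promoter table (GRCm38.p6) matched 7 of the 10 members, in 8 windows: H2-Aa, H2-Eb1, H2-DMa (with a pair of start sites), H2-DMb1, H2-Oa, H2-Ob and Ctss. The 5 stretches below carry the core of the Y box, CCAAT read on the opposite strand, and are set so that this core, in capitals, falls at the same place in each. In H2-Aa the capitals further left mark TGACG on both strands, overlapping, the core of the X2 box. The stretches lie at chr17:34287857-34287931 (minus strand) for H2-Aa, chr17:34305748-34305822 (plus strand) for H2-Eb1, chr17:34153070-34153144 (plus strand) for H2-DMb1, chr17:34092276-34092350 (plus strand) for H2-Oa and chr17:34238788-34238862 (plus strand) for H2-Ob, all upstream of the annotated start.
H2-Aa: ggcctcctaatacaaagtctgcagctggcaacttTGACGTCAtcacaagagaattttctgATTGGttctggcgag
H2-Eb1: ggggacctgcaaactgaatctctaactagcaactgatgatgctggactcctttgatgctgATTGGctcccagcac
H2-DMb1: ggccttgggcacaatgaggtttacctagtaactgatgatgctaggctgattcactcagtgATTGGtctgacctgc
H2-Oa: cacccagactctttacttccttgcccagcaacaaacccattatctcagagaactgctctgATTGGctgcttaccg
H2-Ob: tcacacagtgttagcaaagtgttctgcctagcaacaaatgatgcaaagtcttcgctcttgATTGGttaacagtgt

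In the 5 stretches shown, the Y box core in capitals began between 43 and 61 bases before the start. CCAAT on either strand stood in 6 of the 8 member windows, those of 6 genes, and in 37.4% of all 32851 promoter windows of this length. H2-DMa had it only in its second window, far upstream of the others (position -198 from the start), and H2-Eb1 had a further copy on the plus strand at position -35. TGACG on either strand stood in 1 member window, that of H2-Aa, with 18 bases between it and the Y box core, and in 20.8% of all windows. In the Ctss window the interferon response element began 21 bases before the start. It is in capitals below, in the stretch chr3:95526735-95526785 (plus strand). This motif, GAAA followed by any 2 bases and GAAA again on either strand, was added after the sequences were seen, and 3.44% of all windows had it.
Ctss: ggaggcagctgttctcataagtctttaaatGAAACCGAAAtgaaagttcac
Such matches describe letters and do not show that a factor was bound.

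Totals per library ran from 16731850 to 21444907 counts, and the common biological coefficient of variation was 0.190. Fto (ENSMUSG00000055932), the check on the labels, stood between 650.1 and 740.8 CPM (normalised read count, scaled for library size by TMM) in the FTO-overexpressing libraries and between 66.2 and 69.9 CPM in the wild-type libraries, with no overlap. Of 5 lung tissue markers, 0 passed an edgeR adjusted p of 0.05 (median log2 fold change -0.14), and Sftpc, Ager and Scgb1a1, at 1170 CPM or more, were present in all 6. Of 4 thymocyte markers none had the counts to be tested, 2 of them were at 0 throughout, and together they came to at most 0.315 CPM in any library. In whole lung, more cells of a type and more RNA per cell cannot be told apart.

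No class II gene passed the threshold between the groups. Of the 10 members, 0 passed an edgeR adjusted p of 0.05, against 0.0942% of all genes tested (16 of 16989), 0.0765% higher and 0.0177% lower. Their adjusted p ran from 0.524 to 0.998. In DESeq2 0 of the 10 passed as well, against 2.50% of all genes, and in limma-voom 0 passed. Without adjustment 1 member, Ciita, had p under 0.05, against 9.44% of all genes. No member had every FTO-overexpressing library above every wild-type library, an arrangement found in 7.96% of all genes, or every one below, found in 6.90%. The log2 fold change was above 0 for 8 of the 10 members, against 51.5% of all genes. This number ran from 7 to 10 over the alternative fits, and H2-Ob counted at 0.0050. The members are not independent, since H2-Aa, H2-Ab1, H2-Eb1 and Cd74 varied together between libraries. The median log2 fold change of the members was 0.12, and that of all genes tested was 0.0069.

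**Figure D1:**
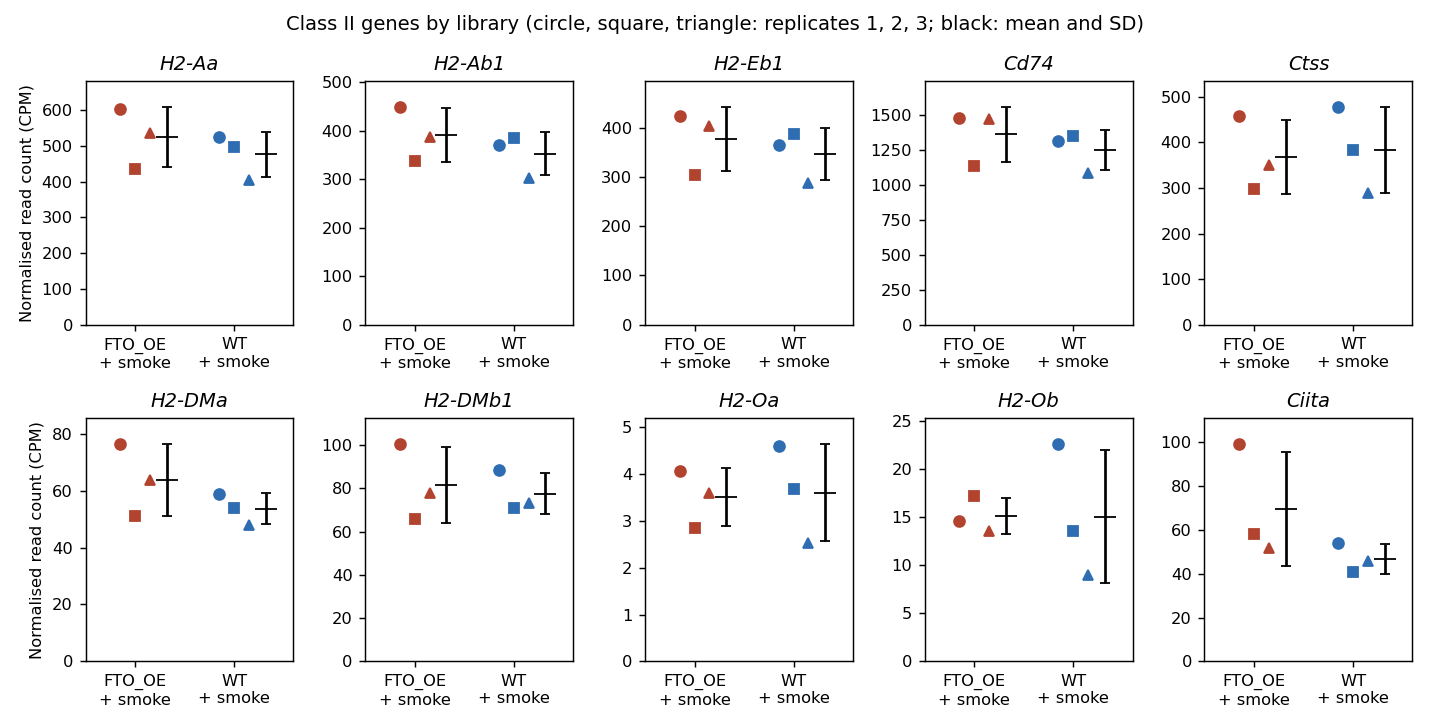
Normalised read count (CPM, linear axes from 0) of each class II gene in the 3 FTO-overexpressing and the 3 wild-type libraries, all smoke-exposed; marker shapes are replicates 1, 2 and 3 and black bars the mean with its SD (n = 3). The groups overlap in all 10 panels, and Ciita in FTO-overexpressing replicate 1, at 99.1 CPM, stands highest of its panel.

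The classical chains differed between the groups by less than their spread. H2-Aa (ENSMUSG00000036594), the alpha chain of the I-A molecule, stood at 602.7, 434.9 and 535.4 CPM in FTO-overexpressing lungs and at 526.4, 497.1 and 405.6 CPM in wild-type lungs. H2-Ab1 (ENSMUSG00000073421), the I-A beta chain, stood at 448.3, 338.1 and 387.8 CPM in FTO-overexpressing lungs and at 369.6, 385.7 and 302.6 CPM in wild-type lungs. In both genes FTO-overexpressing replicate 1 was the highest library and wild-type replicate 3 the lowest, and the groups overlapped. The fitted fold was 1.10 for H2-Aa (95% interval 0.867 to 1.40, edgeR adjusted p = 0.854). It was 1.11 for H2-Ab1 (95% interval 0.893 to 1.38, edgeR adjusted p = 0.812). Both intervals leave room for a difference in either direction.

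H2-Eb1 (ENSMUSG00000060586), the beta chain of the I-E molecule, averaged 376.9 ± 64.8 CPM in FTO-overexpressing lungs and 346.7 ± 52.1 CPM in wild-type lungs (SD, n = 3 each), a fold of 1.09 (edgeR adjusted p = 0.884). Its partner chain gene H2-Ea, which is not transcribed in mice of the H2b haplotype such as C57BL/6, had 0 counts in all 6 libraries, which allows up to 3 counts in each. The strain is not given in the labels.

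Cd74 (ENSMUSG00000024610), the invariant chain, gave the most counts of the 10. It stood at 1476, 1137 and 1472 CPM in FTO-overexpressing lungs and at 1311, 1348 and 1082 CPM in wild-type lungs. FTO-overexpressing replicate 2 lay among the wild-type values, and the fold was 1.09 (95% interval 0.863 to 1.38, edgeR adjusted p = 0.862). Ctss (ENSMUSG00000038642), which encodes cathepsin S, stood at 457.8, 297.0 and 350.2 CPM in FTO-overexpressing lungs and at 477.4, 383.1 and 288.1 CPM in wild-type lungs. The wild-type group held both its highest and its lowest value. Its fold was 0.962 (95% interval 0.682 to 1.36, edgeR adjusted p = 0.970).

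The peptide editor H2-DM is a pair of the products of H2-DMa and H2-DMb1. H2-DMa (ENSMUSG00000037649) stood at 76.4, 51.0 and 63.7 CPM in FTO-overexpressing lungs and at 59.0, 53.8 and 48.1 CPM in wild-type lungs, and the groups overlapped through FTO-overexpressing replicate 2. Its fold of 1.19 (95% interval 0.933 to 1.52, edgeR adjusted p = 0.692) was the second largest of the 10. In GENCODE M21 its exons share 360 bases with Brd2 on the opposite strand, which had 3896 to 5205 counts per library, so its reads may not be wholly its own. H2-DMb1 (ENSMUSG00000079547) averaged 81.5 ± 17.7 CPM in FTO-overexpressing lungs and 77.6 ± 9.61 CPM in wild-type lungs (SD, n = 3 each), a fold of 1.05 (edgeR adjusted p = 0.947).

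H2-DMb1 has a close copy, H2-DMb2, and its deposited counts were fractional in all 6 libraries. The counts of H2-DMa were fractional in all 6 too, so reads may have been split between loci, and H2-Oa had such counts in 3 libraries. The sum of H2-DMb1 and H2-DMb2 was 114.5, 79.4 and 91.1 CPM in FTO-overexpressing lungs and 106.3, 88.8 and 82.1 CPM in wild-type lungs, and it too overlapped between the groups. H2-DMb2 alone had a fold of 0.916 and H2-Eb2, a paralogue of H2-Eb1, one of 0.816, with edgeR adjusted p of 0.933 and 0.880.

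The inhibitor H2-O, a pair of the products of H2-Oa and H2-Ob, is known mainly from B cells. H2-Ob (ENSMUSG00000041538) stood at 14.6, 17.2 and 13.6 CPM in FTO-overexpressing lungs and at 22.6, 13.5 and 9.02 CPM in wild-type lungs. The FTO-overexpressing values sat inside the wild-type range, whose highest library was replicate 1 and whose lowest was replicate 3. H2-Oa (ENSMUSG00000024334), with the fewest counts of the 10, averaged 3.50 ± 0.617 CPM in FTO-overexpressing lungs and 3.60 ± 1.04 CPM in wild-type lungs (SD, n = 3 each). The folds were 1.00 for H2-Ob (95% interval 0.617 to 1.63) and 0.972 for H2-Oa (95% interval 0.625 to 1.51). The edgeR adjusted p was 0.998 for H2-Ob and 0.984 for H2-Oa. Both intervals are wider than those of the chains.

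Ciita (ENSMUSG00000022504), the transactivator on which class II transcription depends, had the largest fold of the 10. It stood at 99.1, 57.8 and 51.5 CPM in FTO-overexpressing lungs and at 53.8, 40.6 and 45.8 CPM in wild-type lungs. FTO-overexpressing replicate 1 was far above the other two, and replicate 3 lay below the highest wild-type library. The fold was 1.49 (95% interval 1.01 to 2.20), with an edgeR p of 0.0471 before adjustment and 0.524 after it. Without FTO-overexpressing replicate 1 the log2 fold change was 0.23, against 0.57 with it, and over the 6 fits that each left out 1 library the edgeR adjusted p ran from 0.387 to 0.915. Its exons share 329 bases with Dexi on the opposite strand in GENCODE M21, a gene with 169 to 239 counts per library.

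**Figure D2:**
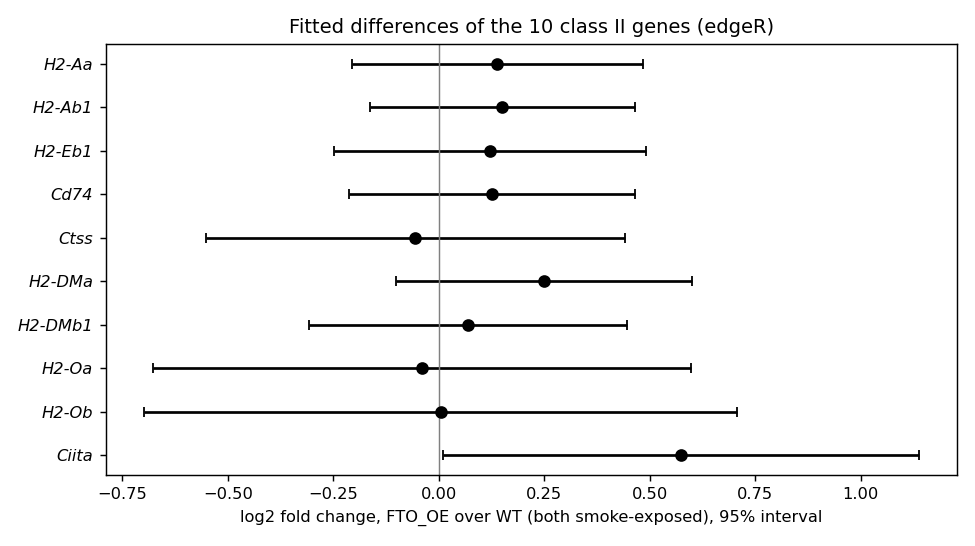
Fitted log2 fold change of the 10 class II genes, FTO-overexpressing over wild-type lungs (points), with 95% intervals from edgeR (bars). The points run from -0.056 (Ctss) to 0.57 (Ciita), and the intervals of 9 genes span 0, while that of Ciita stops just above it before adjustment over all genes.

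The members kept 1 order of mean level per length in both groups. Per kilobase of exon, Cd74 was highest, at 811.0 ± 115.9 CPM per kb in FTO-overexpressing lungs and 742.9 ± 85.8 CPM per kb in wild-type lungs (SD, n = 3 each). Ctss followed, at a mean of 276.6 CPM per kb over the 6 libraries, then H2-Eb1 at 186.1, H2-Ab1 at 144.9 and H2-Aa at 131.7 CPM per kb. Over the 6 libraries the ranges of neighbours among these 4 genes overlapped, but within each library the 4 stood in this same order. Cd74 did not overlap with Ctss, nor H2-Aa with H2-DMb1, at 47.3 CPM per kb, nor H2-DMb1 with H2-DMa, at 17.0 CPM per kb. Ciita stood at 7.29 ± 2.71 CPM per kb in FTO-overexpressing lungs and 4.90 ± 0.697 CPM per kb in wild-type lungs (SD, n = 3 each). It overlapped neither with H2-DMa nor with H2-Ob. H2-Ob and H2-Oa were lowest, at 2.80 and 2.53 CPM per kb over the 6 libraries, and overlapped with each other.

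The balance between members within a library, which no library scaling can change, overlapped between the groups in each of 7 log2 ratios. They were compared by two-sided exact permutation tests, for which 3 against 3 libraries allow no p below 0.10. No ratio could therefore have passed 0.05, whatever its values. The log2 ratio of H2-Aa to H2-Ab1 counts, the I-A chain balance, was 0.42 ± 0.052 in FTO-overexpressing lungs and 0.43 ± 0.073 in wild-type lungs (SD, n = 3 each; exact p = 0.90). That of Cd74 to H2-Ab1 was 1.80 ± 0.11 in FTO-overexpressing lungs and 1.82 ± 0.017 in wild-type lungs (SD, n = 3 each; exact p = 0.80). Ciita to H2-Ab1 differed by 0.37, with log2 ratios of -2.18, -2.55 and -2.91 in FTO-overexpressing lungs and -2.78, -3.25 and -2.72 in wild-type lungs (exact p = 0.30, adjusted p = 0.70 over the 7 ratios). Its groups overlapped, as those of all 7 ratios did. With 1 library left out its difference ran from 0.19 (without FTO-overexpressing replicate 1) to 0.56 (without FTO-overexpressing replicate 3), and it was 0.21 without wild-type replicate 2. H2-Oa to H2-DMa, inhibitor to editor, differed by -0.25 (exact p = 0.40) and Ctss to H2-Ab1 by -0.20 (exact p = 0.30).

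Among themselves the 3 classical chains and Cd74 varied together from library to library. Each was set to its own mean log2 CPM over the 6 libraries. Their mean deviation was 0.25, -0.19 and 0.13 in FTO-overexpressing replicates 1, 2 and 3, and 0.033, 0.059 and -0.29 in wild-type replicates 1, 2 and 3. Each of the 4 stayed within a root mean square difference of 0.035 to 0.040 log2 units of that mean, of which it is itself a part. H2-DMa was 0.092 from it, H2-DMb1 0.15, H2-Oa 0.17 and Ctss 0.17. Ciita, at 0.35, and H2-Ob, at 0.37, were farthest.

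**Figure D3:**
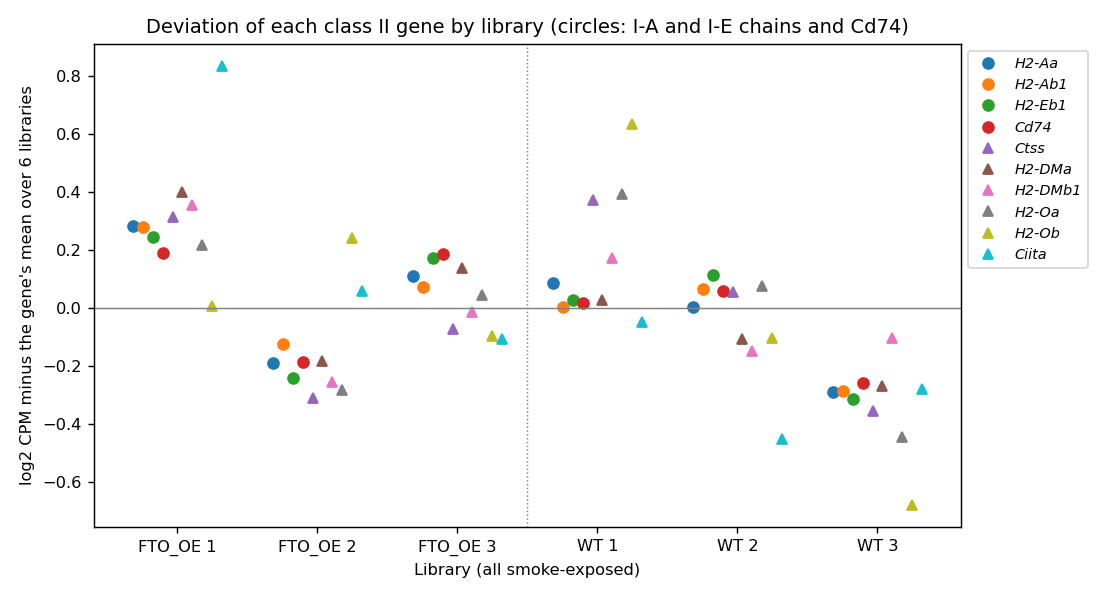
Deviation of each class II gene from its own mean log2 CPM in each of the 6 smoke-exposed libraries, FTO-overexpressing left and wild-type right; circles are H2-Aa, H2-Ab1, H2-Eb1 and Cd74, triangles the other 6 genes. The circles lie together in every library, while Ciita (0.83 in FTO-overexpressing replicate 1) and H2-Ob (0.63 in wild-type replicate 1 and -0.68 in wild-type replicate 3) stand apart from them.

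Genes outside the set also had this pattern. Among 13397 other genes with an average log2 CPM of at least 1, the 8 nearest to the mean deviation of the 4 were Snrpd1, Aldh9a1, Dnajc2, Pygl, Rab8b, Mrps18b, Ggh and Nme2, at root mean square differences of 0.036 to 0.058 log2 units over the 6 libraries. Snrpd1, a spliceosome subunit gene, stood at 35.0, 25.8 and 31.9 CPM in FTO-overexpressing lungs and at 31.2, 29.8 and 25.1 CPM in wild-type lungs. The mean deviation of the 4 spanned 0.54 log2 units from the highest to the lowest library.

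Among the other genes of the pathway 1 passed the threshold in edgeR, Ifng. Of 8 genes of peptide processing, 0 passed the threshold over all genes, and all 8 had log2 fold changes below 0 (median -0.13). Ifi30, the lysosomal thiol reductase, had a fold of 0.891, Lgmn, an asparagine-specific protease, one of 0.918 and Ctsl, cathepsin L, one of 0.907. Ctsh, cathepsin H, chosen after its values were seen, stood between 269.0 and 301.0 CPM in FTO-overexpressing lungs and between 329.4 and 341.2 CPM in wild-type lungs, with an edgeR adjusted p of 0.363. Of 7 factors that bind class II promoters, 0 passed (median -0.0015); the folds were 1.16 for Rfx5, 0.918 for Rfxap and 0.999 for Rfxank, the subunits of the X box complex. Of 7 genes of surface turnover and co-stimulation, 0 passed (median 0.065). Among them the ubiquitin ligase genes Marchf1 and Marchf8, whose products take class II off the surface, had folds of 1.14 and 0.916, and Cd83, which opposes them, had one of 0.937.

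Ifng, the cytokine that induces Ciita, rose. It stood at 2.49, 2.67 and 3.55 CPM in FTO-overexpressing lungs and at 0.325, 0.158 and 0.385 CPM in wild-type lungs, a fold of 9.89 (95% interval 5.39 to 18.2, edgeR adjusted p = 0.0361). It was the 1 of 11 genes of Ciita induction and repression that passed (median log2 fold change 0.25). Its levels in wild-type lungs were low, and it did not enter the test under a filter of a mean of at least 50 counts. There 10 of the 11 genes had a value and 0 passed. The call of Ifng held without FTO-overexpressing replicate 1 and was lost without each of the other libraries in turn. The edgeR adjusted p was 0.135 and 0.138 without FTO-overexpressing replicates 2 and 3, and 0.0600, 0.155 and 0.155 without wild-type replicates 1, 2 and 3. In limma-voom the adjusted p of Ifng was 0.0794, and with the replicate number as a block in edgeR it was 0.121. The call held in edgeR with RLE, upper-quartile or library-total scaling and with no filter (adjusted p = 7.86e-04). It also held in DESeq2 (adjusted p = 3.11e-07), which called 2.50% of all genes. The log2 fold change of Ifng stayed between 3.01 and 3.56. Its receptor genes Ifngr1 and Ifngr2 had folds of 0.969 and 0.962. Irf1, a transcription factor that acts on the Ciita promoter and was chosen after its values were seen, had a fold of 1.38, with an edgeR adjusted p of 0.410. It was highest in FTO-overexpressing replicate 1, at 222.2 CPM, the library in which Ciita was highest. Ifng had the reverse order. Within the FTO-overexpressing group it was lowest in replicate 1, at 2.49 CPM, and highest in replicate 3, at 3.55 CPM, where Ciita was lowest. A link between these orders was not tested.

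Genes that interferon gamma induces outside class II are given for comparison, and the difference between them and the class II genes was not tested. This list, like the others, was chosen with earlier results of these data known. Its counts beside the shares of all genes are therefore a description and not a test. Of the 15 genes, 0 passed the threshold over all genes in edgeR and 0 in limma-voom. DESeq2 called 3 of them, against 2.50% of all genes. With no filter on low counts edgeR called 4, against 287 of 29537 genes. All 15 had log2 fold changes above 0 and an unadjusted p under 0.05, which 5.77% of all genes had in that direction, and their median log2 fold change was 0.90. In 11 of the 15 every FTO-overexpressing library lay above every wild-type library, against 7.96% of all genes. Without FTO-overexpressing replicate 1 the median was 0.48, with 9 genes at an unadjusted p under 0.05, and without wild-type replicate 2 it was 0.83, with 8. The guanylate-binding protein genes Gbp2, Gbp3 and Gbp4 had folds of 1.94, 1.83 and 2.50. The summed level of the 15 was 2562, 1325 and 1273 CPM in FTO-overexpressing lungs and 1079, 760.7 and 836.5 CPM in wild-type lungs. FTO-overexpressing replicate 1 was again the highest library, and the groups did not overlap. Nlrc5, which does for class I genes what Ciita does for class II and was chosen after its values were seen, stood at 83.4, 71.0 and 60.9 CPM in FTO-overexpressing lungs and at 47.8, 35.5 and 35.3 CPM in wild-type lungs. Its fold was 1.82 (95% interval 1.41 to 2.34, edgeR adjusted p = 0.117), with each FTO-overexpressing library above each wild-type one.

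**Figure D4:**
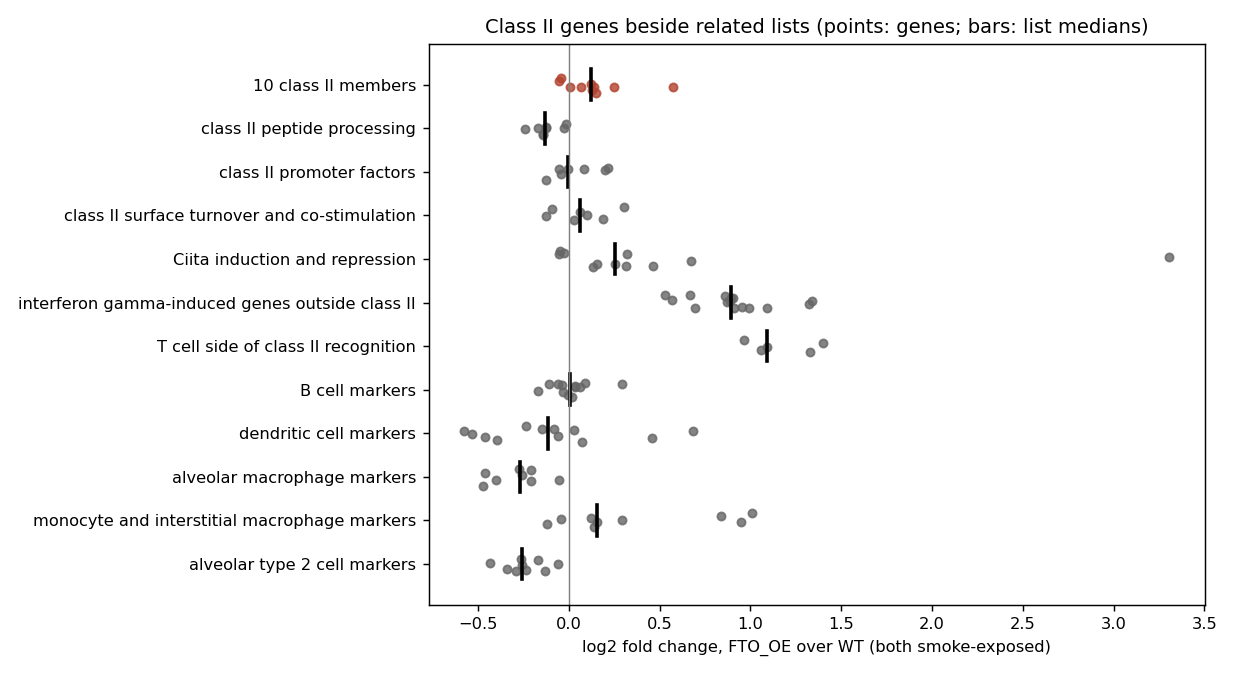
Fitted log2 fold change, FTO-overexpressing over wild-type lungs, of each tested gene (points) in the class II set and in 11 related lists, with list medians as black bars. The class II median is 0.12, that of the interferon gamma-induced genes 0.90 and that of the T cell side 1.09; the point far to the right is Ifng at 3.31.

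On the T cell side, 0 of 5 genes passed the threshold over all genes in edgeR. DESeq2 called 2, against 2.50% of all genes, and all 5 had log2 fold changes above 0 (median 1.09). Cd4, the co-receptor that binds class II, stood at 26.1, 20.9 and 39.7 CPM in FTO-overexpressing lungs and at 14.4, 18.0 and 8.47 CPM in wild-type lungs, a fold of 2.13 (edgeR adjusted p = 0.282). Lag3, an inhibitory receptor for class II, had a fold of 2.51 and Cd28, the co-stimulatory receptor, one of 2.64, with edgeR adjusted p of 0.469 and 0.208. Of 8 T cell markers, 3 passed, against 0.0942% of all genes. They were Cd8a, Cd8b1 and Lck, at folds of 7.03, 8.58 and 4.89 (edgeR adjusted p of 0.0300, 0.0363 and 0.0300; median log2 fold change of the 8, 1.85). Leaving out FTO-overexpressing replicate 2 or any of wild-type replicates 1, 2 and 3 ended all 3 calls, with adjusted p of 0.0543 to 0.172, and leaving out FTO-overexpressing replicate 3 ended those of Cd8a (0.0646) and Cd8b1 (0.0628). In limma-voom none of the 3 passed (adjusted p of 0.0810, 0.124 and 0.0794), nor with the replicate number as a block (0.121 for each). DESeq2 called all 8 markers, against 2.50% of all genes. Mouse T cells make little or no class II themselves.

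No marker of the cell types known to make class II passed the threshold over all genes in edgeR. Of 12 B cell markers, 0 passed (median log2 fold change 0.0059). Their summed level was 158.3, 148.9 and 152.0 CPM in FTO-overexpressing lungs and 216.3, 147.9 and 94.7 CPM in wild-type lungs. It was highest in wild-type replicate 1 and lowest in wild-type replicate 3. H2-Ob had these same extremes, but so did H2-Oa, Ctss and Csf1r, a marker of monocytes and interstitial macrophages. Ms4a1 and Cd79a had folds of 0.996 and 0.926. Of 12 dendritic cell markers, 0 passed (median -0.11), and they summed to 248.0, 222.5 and 224.1 CPM in FTO-overexpressing lungs and 233.3, 267.6 and 217.2 CPM in wild-type lungs. Flt3, Zbtb46 and Itgax had folds of 0.693, 0.946 and 1.05. Itgax alone gave 113.4, 108.9 and 108.2 CPM of the sum in FTO-overexpressing lungs and 116.1, 111.5 and 86.6 CPM in wild-type lungs.

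Of 8 alveolar macrophage markers, 0 passed, all lay below 0 (median -0.27), and they summed to 2287, 1411 and 1555 CPM in FTO-overexpressing lungs and 2906, 2058 and 2076 CPM in wild-type lungs. Most of each sum was Chil3, at 1755, 1009 and 1210 CPM in FTO-overexpressing lungs and 2338, 1540 and 1632 CPM in wild-type lungs. Of 9 markers of monocytes and interstitial macrophages, 0 passed in edgeR and 1 in DESeq2, against 2.50% of all genes in DESeq2 (median 0.15). They summed to 622.4, 595.8 and 727.4 CPM in FTO-overexpressing lungs and 598.9, 458.2 and 367.0 CPM in wild-type lungs. In 3 of the 9, every FTO-overexpressing library lay above every wild-type library, against 7.96% of all genes. These 3, Cx3cr1, Ccr2 and Ly6c2, were chosen after their values were seen. Their folds were 1.93, 1.79 and 2.01, with edgeR adjusted p of 0.376, 0.387 and 0.251. C1qa, C1qb and C1qc, which head the list, overlapped between the groups, with folds of 1.10, 1.11 and 1.22. Csf1r and Adgre1 had folds of 0.973 and 0.920. Of 9 alveolar type 2 cell markers, 0 passed, all lay below 0 (median -0.26) and 6 were lower in every FTO-overexpressing library than in any wild-type one, against 6.90% of all genes. DESeq2 called 3 of the 9 lower, against 2.50% of all genes in either direction. The 9 summed to 19742, 18427 and 22175 CPM in FTO-overexpressing lungs and 24370, 23282 and 21328 CPM in wild-type lungs. Most of each sum was Sftpc, at 12282.4, 11475.8 and 14157.2 CPM in FTO-overexpressing lungs and 15069.6, 13843.3 and 12612.5 CPM in wild-type lungs. Neutrophil markers, of a cell type with little class II, gave 0 of 5 (median 0.28), at 1937, 905.0 and 2069 CPM in FTO-overexpressing lungs and 1552, 1405 and 1111 CPM in wild-type lungs. Of 4 haemoglobin genes, a measure of blood in the tissue, 0 passed (median 0.21, and -0.17 in limma-voom), at 33719, 17264 and 3643 CPM in FTO-overexpressing lungs and 23185, 15674 and 8500 CPM in wild-type lungs. None of these lists had a marker at 0 in every library. Their part in the class II values was not tested.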

How the data were processed

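Messenger RNA of mouse lung was sequenced in 6 libraries. Per the labels' protocols, RNA was extracted with TRIzol, accepted at an RNA quality number of at least 6.5 and made into libraries with a stranded kit. The submitters' processing notes name fastp, HISAT2 and StringTie. Versions, build, annotation and strand setting were not given in the sources used here. The authors deposited expected counts (read estimates, some of them fractional) for 57180 rows.

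Counts were rounded. In R 4.3.3, edgeR 4.0.16 was run with filterByExpr, TMM scaling and its quasi-likelihood test, comparing the groups with no covariate. 16989 genes entered, with Benjamini-Hochberg adjustment over all of them and a threshold of 0.05. Levels are TMM-normalised read counts (CPM). Standard errors and 95% intervals were derived from the fold change and its F statistic. The procedure was tested on simulated data. Levels per length used exon lengths from GENCODE M21 (GRCm38), which need not be the authors' annotation. Promoter sequences came from RefSeq (GRCm38.p6). Motif searches covered 250 bases before to 50 after each start.

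The 10 genes and all lists were chosen with earlier results of these data known. Named genes were the 10, Fto, the first 3 of each list, any list gene past the threshold, and 8 genes of similar pattern; a few of these are not reported here. Alternatives were other scalings and filters, a replicate block, limma-voom (limma 3.58.1), DESeq2 1.42.0 and leaving out each library.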

Additional observations from a re-analysis of the deposited data

How the results depend on the processing

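In 17 alternatives 0 of the 10 class II genes passed the threshold, and the lowest adjusted p was 0.265, for Ciita in DESeq2. Their median log2 fold change ran from 0.028 to 0.24 with 1 library left out, without FTO-overexpressing replicates 1 and 2 in that order. Of 150 values of single members, 140 kept their sign, and the cause of the 10 reversals was not tested. H2-Ob was -0.00050 with RLE scaling and -0.00016 with DESeq2. With 1 library left out, H2-Ob ran from -0.26 to 0.43, H2-DMb1 from -0.11 to 0.20, H2-Oa from -0.24 to 0.18 and Ctss from -0.24 to 0.14. The log2 ratio difference of H2-Aa to H2-Ab1 ran from -0.048 to 0.024, that of Cd74 to H2-Ab1 from -0.090 to 0.013 and that of H2-Ob to H2-DMb1 from -0.23 to 0.29. The number of genes called, 16 as reported, depended on the settings. It was 287 with no filter, 31 without haemoglobin, immunoglobulin and mitochondrial genes, 5 with limma-voom, 424 with DESeq2, 1 at an adjusted p of 0.01 and 70 at 0.1. With 1 library left out it ran from 1 (without FTO-overexpressing replicate 2 or wild-type replicate 2 or 3) to 49 (without FTO-overexpressing replicate 1). The added fits of Ifng, Cd8a, Cd8b1 and Lck and of the lists were chosen after seeing the data. With the replicate number as a block, 2 genes and 0 members were called, and the edgeR adjusted p of Ifng was 0.121. Deviations of same-numbered libraries from their group means correlated at 0.11, -0.31 and -0.31. Such deviations sum to 0 within each group of 3, so these values cannot show whether the numbers pair the samples.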

Other observations

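In GRCm38 (GENCODE M21) the class I pathway genes Psmb9, Tap1 and Psmb8 lie inside the class II region, between H2-DMb1 and H2-Ob. These 3, from the list of interferon gamma-induced genes, were looked at after their values were seen. Any other genes of the interval are not given here. Tap1, a subunit of the peptide transporter of class I loading, stood at 131.8, 99.3 and 105.7 CPM in FTO-overexpressing lungs and at 74.3, 53.1 and 52.0 CPM in wild-type lungs, a fold of 1.88 (95% interval 1.43 to 2.46, edgeR adjusted p = 0.118). Psmb8 and Psmb9, subunits of the immunoproteasome, had folds of 1.45 and 1.48 (edgeR adjusted p of 0.438 and 0.449). The flanking H2-DMb1 and H2-Ob had folds of 1.05 and 1.00. Neither the 3 genes nor the flanking pair passed the threshold over all genes, and the difference between them was not tested.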
